A study of Mus musculus with 2148 samples.

Results

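The costimulatory and coinhibitory genes Cd80, Cd86, Cd40, Cd83, Cd274, Pdcd1lg2, Icosl and Ctla4 were followed across sorted thymic epithelial cells (TECs). They were taken as a fixed list of symbols mapped from Ensembl identifiers, and all 8 were found among the 48437 genes of the raw count table. At least 1 read was found in 22.8% (Ctla4) to 98.6% (Cd274) of all single cells.

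T cells that recognise antigen receive further signals from surface proteins of the presenting cell. CD80 and CD86, both of the B7 family, engage CD28, which promotes activation, or CTLA-4, which restrains it, and ICOS ligand (encoded by Icosl) engages the CD28 relative ICOS. PD-L1 (Cd274) and PD-L2 (Pdcd1lg2) engage the inhibitory receptor PD-1. CD40 is a receptor of the TNF receptor superfamily that receives signals from CD40 ligand on T cells, and CD83 is a membrane protein that stabilises MHC class II and CD86 at the cell surface. In the thymic medulla, mature epithelial cells use MHC class II with CD80 and CD86 to present self-antigens to developing T cells, which supports deletion of autoreactive cells and the development of regulatory T cells. CTLA-4 is best known from T cells, and regulatory T cells in particular.

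The cells came from C57BL/6 mice and had been sorted as DAPI-CD45-EpCAM+ cells, either Ly51+ (cortical, cTEC) or Ly51- with high or low surface MHC class II (medullary, mTEChi and mTEClo), so no member of the list defined a gate. RamDA-seq, which covers the length of both polyadenylated and other transcripts, gave the reads. Mice are not numbered in the labels, so the reads of all cells sharing sort, genotype, age and sex were added up to 1 pool. No experimental batch of adult cells held cells of another group, so differences by adult sort, genotype or age cannot be told apart from batch. Adult wild-type (WT) mTEChi comprised 4 pools, namely pool 1 (4 weeks, male, 22.4% of all cells), pool 2 (5 weeks, male, 12 cells), pool 3 (6 weeks, male, 82 cells) and pool 4 (4 weeks, female, 82 cells). Adult WT mTEClo comprised 3 pools of male mice, namely pool 1 (8 weeks, 11.0% of all cells), pool 2 (5 weeks, 74 cells) and pool 3 (4 weeks, 66 cells). Every other group was a single pool: Aire knockout (Aire-KO) mTEChi (17.1% of all cells) and mTEClo (7.78%) of 5-week males, WT newborn mTEChi (8.64%), mTEClo (6.26%) and cTEC (7.02%) at 1 day of age and of unknown sex, and adult WT cTEC (6-week males, 77 cells). The Aire-KO mice, also of C57BL/6 background, were of a line described earlier, and the number of mice behind a pool is not given in the sources used here. Median depth ran from 532926 to 862537 reads per cell over the groups, and from 7990398 to 351545799 reads per pool. Levels are the reads of a gene per 1e6 reads on all genes (CPM) of the summed pool, given as mean ± SD over pools.

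Aire, the gene targeted in the knockout, was at 1109.7, 1844.6, 1125.1 and 1789.7 CPM in the 4 adult WT mTEChi pools and at 26.1 CPM in Aire-KO mTEChi. The WT mTEClo pools held 26.1 to 39.5 CPM, Aire-KO mTEClo 0.153 CPM. The MHC class II gene H2-Aa followed the order of the gates, with 1627.2 ± 217.5 CPM (SD, n = 4) for the adult WT mTEChi pools and 551.4 ± 279.3 CPM (n = 3) for those of mTEClo. Leukocyte transcripts also moved with the sort. The summed level of 13 dendritic cell and macrophage genes was 525.4 to 810.1 CPM in the adult WT mTEChi pools, against 84.4 to 128.6 CPM in mTEClo, 582.4 CPM in Aire-KO mTEChi and 693.8 CPM in newborn mTEChi. Of their defining genes, Itgax reached 46.3 CPM in mTEChi pool 2, and Clec9a and Siglech stayed at or below 1.95 CPM in all pools. The 6 B cell genes summed to 91.3 to 142.5 CPM in mTEChi and 5.49 to 78.3 CPM in mTEClo, and the 13 T cell genes to 63.7 to 222.1 and 34.4 to 88.7 CPM, with a maximum of 438.7 CPM in adult cTEC. The part of such transcripts in the differences between sorts was not tested, but levels and tests were also taken from the cells with fewer than 5 reads over 8 leukocyte genes, a check chosen after the data were seen. The mTEClo pools were unlike each other: 9 tuft cell genes summed to 631.2 CPM in pool 1 and to 5961 and 6713 CPM in pools 2 and 3.

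The genes lie on 6 chromosomes (GRCm38), and all are protein-coding. Cd86 (ENSMUSG00000022901, minus strand) lies at chr16:36603869-36666081 and Cd80 (ENSMUSG00000075122, plus) at chr16:38455561-38496335. Cd274 (ENSMUSG00000016496, plus) at chr19:29367455-29388095 is followed after 22823 bases by Pdcd1lg2 (ENSMUSG00000016498, plus) at chr19:29410919-29471161. Icosl (ENSMUSG00000000732, plus) lies at chr10:78069302-78083913, 25691 bases from Aire, with Dnmt3l between them. Ctla4 (ENSMUSG00000026011, plus) at chr1:60887000-60915832 stands between its relatives Cd28 and Icos, at distances of 113640 and 62094 bases. Cd40 (ENSMUSG00000017652, plus) lies at chr2:165055627-165072948 and Cd83 (ENSMUSG00000015396, plus) at chr13:43784775-43803132. Reads were counted without regard to strand, so reads of Cd274 and of Pdcd1lg2 cannot be told apart from those of the antisense genes AC119228.1 and A930007I19Rik that overlap them, nor can Ctla4 be separated with certainty from the pseudogene Rpl18-ps1 within it.

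Promoter sequences of 5 members were found in RefSeq (GRCm38.p6). Those of Icosl, Pdcd1lg2, Cd80 and Ctla4 are shown because all of them were higher in mTEChi than in mTEClo of newborns, below. They are the stretches before the RefSeq start at chr10:78069118-78069301 (Icosl), chr19:29410669-29410918 (Pdcd1lg2), chr16:38458683-38458932 (Cd80) and chr1:60908775-60909024 (Ctla4), all on the plus strand. The last 2 lie inside the longer Ensembl gene, after its own start. Capitals mark a match to the κB motif of NF-κB, searched on both strands.
Icosl: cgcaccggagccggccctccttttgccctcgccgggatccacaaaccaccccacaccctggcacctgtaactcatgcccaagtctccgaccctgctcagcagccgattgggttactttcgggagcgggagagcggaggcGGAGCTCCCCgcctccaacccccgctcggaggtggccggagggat
Pdcd1lg2: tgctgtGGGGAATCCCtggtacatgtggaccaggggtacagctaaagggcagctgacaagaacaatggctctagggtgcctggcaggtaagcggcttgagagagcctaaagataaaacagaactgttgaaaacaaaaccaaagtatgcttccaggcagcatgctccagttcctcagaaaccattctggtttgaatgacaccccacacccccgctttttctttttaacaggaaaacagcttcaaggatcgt
Cd80: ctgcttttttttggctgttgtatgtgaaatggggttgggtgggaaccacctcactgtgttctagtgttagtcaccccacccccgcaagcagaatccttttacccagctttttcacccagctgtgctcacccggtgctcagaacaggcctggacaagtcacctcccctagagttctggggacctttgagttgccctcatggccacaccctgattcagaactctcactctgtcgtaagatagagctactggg
Ctla4: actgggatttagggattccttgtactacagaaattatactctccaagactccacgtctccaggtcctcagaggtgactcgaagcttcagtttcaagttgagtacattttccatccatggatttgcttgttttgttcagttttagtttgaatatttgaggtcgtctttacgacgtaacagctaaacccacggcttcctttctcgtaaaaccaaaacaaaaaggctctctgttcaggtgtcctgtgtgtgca
The κB match of Icosl lies at chr10:78069257-78069266 on the minus strand, and that of Pdcd1lg2, at chr19:29410675-29410684, reads on both strands. Neither the Cd80, Cd274 nor Ctla4 window of 300 bases holds a match, and 8.46% of 32851 mouse promoter windows of this length do. No window of the 5 holds the interferon-stimulated response element (3.44% of all windows) or TTCNNNGAA, the gamma-activated site (8.30%). TATAAA was found just after the RefSeq start in Ctla4 and, on the minus strand, in Cd80 (13.6% of all windows). The Icosl window is rich in CG pairs, with 26, and those of Cd80 and Pdcd1lg2 are poor, with 3 each, where the median window has 7. For Cd274, with 15 CG pairs, the stretch between the neighbouring gene and its start is only 47 bases long. Such matches describe the letters and do not show a binding site.

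Per kilobase of exons, which makes genes comparable, Icosl was the most abundant of the 8 transcripts in adult WT mTEChi, with 122.2 CPM per kb (mean of 4 pools). Cd274 (81.97), Cd40 (75.9) and Cd80 (64.9 CPM per kb) followed, then Pdcd1lg2 (27.1), Cd83 (18.03) and Cd86 (15.98), and Ctla4 was the lowest at 6.08 CPM per kb. Cd40 differed from both Cd274 and Cd80, and Cd83 from Cd86, by less than the SD over pools. In the authors' length-scaled values, averaged over cells, Cd80 ranked first instead. In adult WT mTEClo the same unit put Cd274 far ahead, with 58.96 CPM per kb against 13.1 for Pdcd1lg2 and 9.17 for Icosl, and Cd86 and Ctla4 were last with 0.431 and 0.165. Cortical cells had an order of their own: Cd83 led in adult cTEC with 178.5 CPM per kb, before Cd274 with 130.1, whereas in newborn cTEC Cd274 (197.2) stood before Cd83 (152.2 CPM per kb). Members with a read were also counted per cell, with cells thinned to an equal number of reads. The median was 6 in every mTEChi pool, against 3 or 4 in mTEClo pools.

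**Figure D1:**
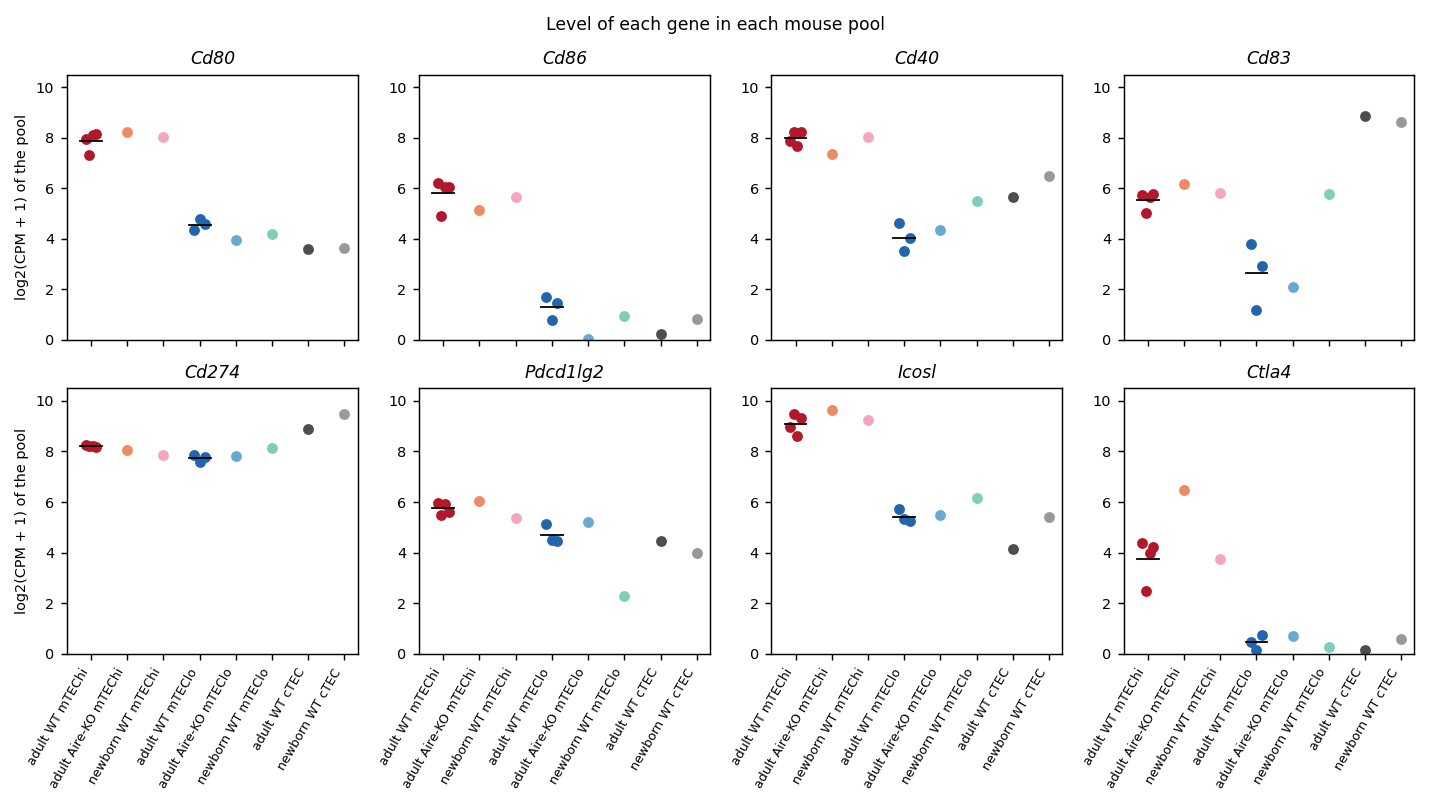
Level of each gene in each pool as log2(CPM + 1), with 1 point per pool, 8 groups along the x axis and a line at the mean where a group has several pools. Cd80, Cd86, Cd40, Icosl and Ctla4 stand high in the 3 mTEChi groups, Cd83 in the 2 cTEC groups, and Cd274 varies least between groups.

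Cd80, the B7 ligand that marks mature medullary epithelium, was at 244.99, 159.9, 277.9 and 278.8 CPM in the 4 adult WT mTEChi pools and at 19.2, 26.5 and 22.8 CPM in the 3 mTEClo pools. The pools of the 2 sorts did not overlap, and the test over all genes gave 9.28-fold more in mTEChi (log2 3.21, SE 0.25, adjusted p = 0.00100, edgeR quasi-likelihood test). Nearly all mTEChi carried it: 99.9% of adult WT cells (mean of 4 pools) had a read, and the highest 10% of cells held 30.6 to 36.5% of the reads of a pool, so the transcript was widely spread. Of mTEClo, 67.4 ± 16.8% (n = 3) had a read. In bulk sums, fewer cells of a type and less RNA per cell cannot be told apart, and for genes with few reads the share of cells with a read does not separate them either. The cTEC levels of Cd80, 11.2 CPM (adult) and 11.3 CPM (newborn), were below those of every mTEC pool.

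Cd86, the second B7 ligand of CD28 and CTLA-4, was lower and far less evenly spread. The adult WT mTEChi pools held 73.3, 28.8, 65.97 and 65.9 CPM and the mTEClo pools 2.23, 0.734 and 1.77 CPM, which is 31.6-fold more in mTEChi (log2 4.98, SE 0.58, adjusted p = 0.00322). Only 60.95 ± 3.87% (n = 4) of mTEChi had a read, and the highest 10% of cells held 69.2 to 89.1% of all Cd86 reads. In mTEClo pool 1, 23.04% of cells had a read, but 1.38% had 5 or more, so most of these detections rested on fewer than 5 reads. Cells with few leukocyte reads gave 41.9 ± 26.8 CPM (3.01 to 61.4 CPM, n = 4 pools) in adult WT mTEChi, where pool 2, of 12 cells, was the lowest.

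Icosl, whose product engages ICOS, showed the widest step in CPM. It was at 505.1, 716.2, 391.7 and 645.4 CPM in adult WT mTEChi and at 51.5, 38.9 and 36.6 CPM in mTEClo, or 11.5-fold higher in mTEChi (log2 3.52, SE 0.30, adjusted p = 0.00139). A read was found in 99.9% of mTEChi and 74.6 ± 18.4% (n = 3) of mTEClo, and the highest single cell, in pool 4, reached 5475 CPM. Adult cTEC had the least Icosl of all groups, with 16.6 CPM and a read in 41.6% of cells at a higher median depth than any other group.

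The PD-1 ligands behaved unlike the B7 genes in the adult comparison. Cd274 was read in 93.5 to 100% of the cells of every pool, at 305.3, 298.1, 296.9 and 287.3 CPM in adult WT mTEChi and 229.4, 192.2 and 219.1 CPM in mTEClo. The pools did not overlap, but the difference of 1.21-fold did not pass the test (log2 0.27, SE 0.16, adjusted p = 0.252). Pdcd1lg2 was at 61.9, 43.6, 59.8 and 47.5 CPM in mTEChi and 34.3, 21.4 and 21.3 CPM in mTEClo (log2 0.83, SE 0.30, adjusted p = 0.0958). It passed in 2 of 15 settings. Cells with a Pdcd1lg2 read made up 79.6 ± 4.72% (n = 4) of mTEChi and 64.995 ± 7.72% (n = 3) of mTEClo.

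CD40, the receptor through which T cells stimulate medullary epithelium, was encoded at 233.9, 300.5, 200.8 and 298.6 CPM in adult WT mTEChi and at 23.3, 10.4 and 15.2 CPM in mTEClo, a 13.5-fold step (log2 3.76, SE 0.38, adjusted p = 0.00200). Its reads were in 98.6% of mTEChi and 48.5 ± 25.6% (n = 3) of mTEClo. Cd83 was at 52.2, 31.04, 49.3 and 52.9 CPM in mTEChi and at 13.03, 1.28 and 6.52 CPM in mTEClo, and just missed the threshold (log2 2.48, SE 0.71, adjusted p = 0.0537). Cd83 was called in 7 of 15 settings, including the fit without mTEClo pool 1, in which a single experimental batch of the sort reached 38.988 CPM. That pool's highest cell had 2025 CPM, and in cells with few leukocyte reads the mean of Cd83 was lower in both sorts, at 3.41 against 6.94 CPM in all cells of mTEClo and at 30.6 against 46.4 CPM in mTEChi (10.02 to 52.4 CPM over its pools).

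Ctla4, the only receptor of T cells in the list, was at 19.7, 4.51, 14.997 and 17.5 CPM in adult WT mTEChi and at 0.373, 0.100 and 0.682 CPM in mTEClo (32.4-fold, log2 5.02, SE 0.82, adjusted p = 0.00990). Reads were found in 27.7 ± 7.62% (n = 4) of mTEChi, against 5.64 ± 3.61% (n = 3; 2.70 to 9.68%) of mTEClo, 7.19% of newborn cTEC and 3.90% of adult cTEC, whose median depth was higher than that of mTEChi. Within mTEChi the transcript was concentrated, since the highest 10% of cells held 87.8 to 100% of the reads of a pool and the highest cell reached 1373.4 CPM. Foxp3, the regulatory T cell factor, was at 0 to 1.19 CPM and Cd3e at 2.91 to 23.9 CPM in these 4 pools. In cells with few leukocyte reads Ctla4 was at 14.9 ± 10.7 CPM (n = 4), against 14.2 ± 6.72 CPM in all cells.

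**Figure D2:**
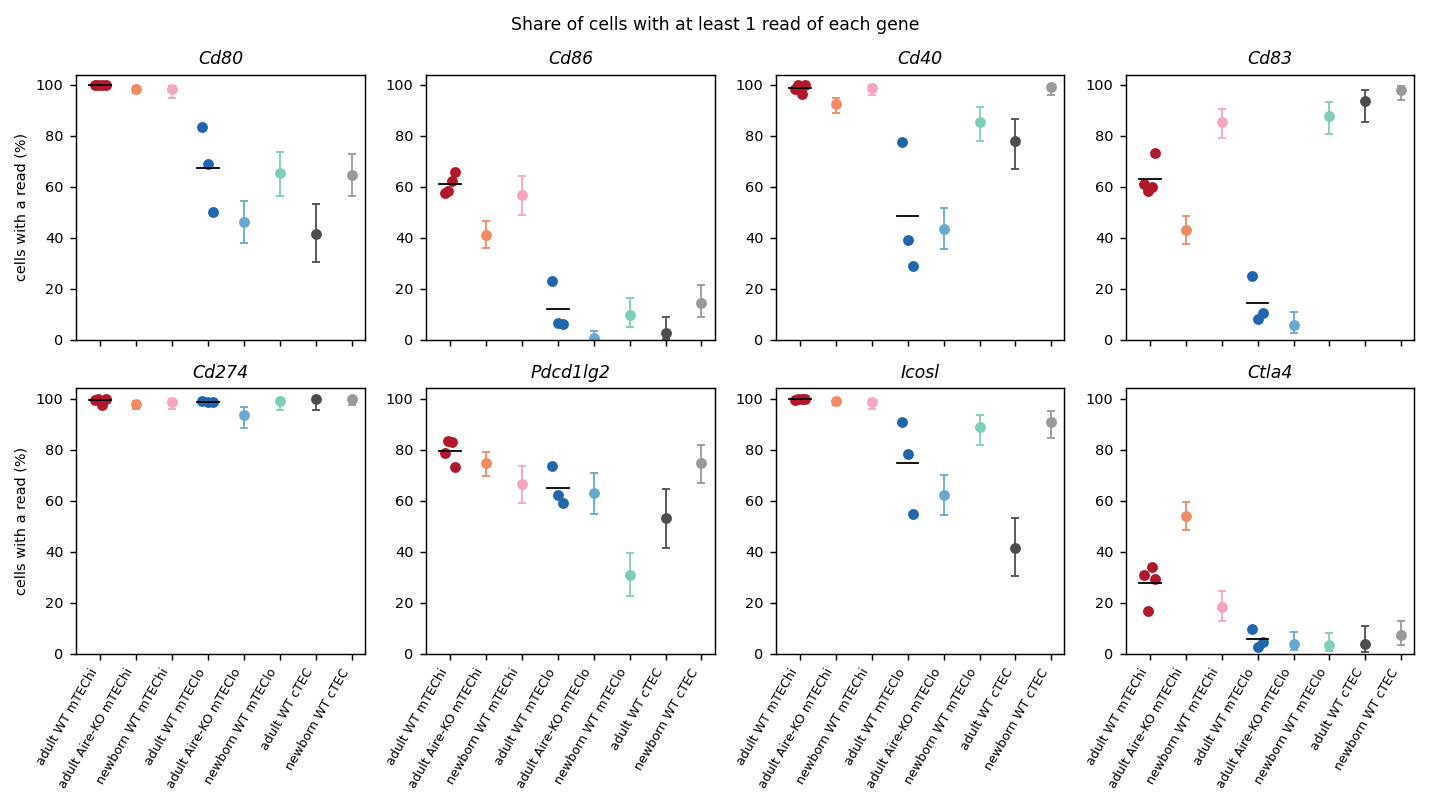
Share of cells (%) with at least 1 read of each gene, with 1 point per pool, lines at the mean of groups with several pools and exact 95% binomial intervals in groups of 1 pool, which cover counting error only. Cd80, Cd40, Cd274 and Icosl are near 100% in the mTEChi groups, Ctla4 rises to 53.8% in Aire-KO mTEChi and Cd86 falls to 0.649% in Aire-KO mTEClo.

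In all, 5 of the 8 genes were called higher in adult WT mTEChi, where 7.54% of the 39971 genes tested were. The median of the members was 3.37 on the log2 scale, against 0.30 over all genes tested and 0.4 with RLE size factors. Each of the 8 members had its 4 mTEChi pools above its 3 mTEClo pools, a pattern that 16.1% of the genes tested showed. Between 5 and 7 members were called over the 15 settings, with Cd80, Cd86, Cd40, Icosl and Ctla4 called in each.

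In newborns the sorts were compared within 5 experimental batches, so the test measures technical spread and not the spread between mice. There 6 of 8 members were called higher in mTEChi (background 19.9% of 23349 genes tested). Cd80 was at 257.1 CPM in newborn mTEChi and 17.4 CPM in mTEClo (log2 3.94, SE 0.65, adjusted p = 7.02e-04), Cd86 at 49.9 and 0.937 CPM (log2 7.13, SE 0.97, adjusted p = 2.30e-04) and Icosl at 602.3 and 69.7 CPM (log2 2.96, SE 0.58, adjusted p = 0.00188). Cd40 was at 261.1 and 44.2 CPM (log2 2.67, SE 0.12, adjusted p = 1.8e-06), and Ctla4 at 12.4 and 0.187 CPM (log2 6.11, SE 1.00, adjusted p = 6.93e-04). These 5 genes were also the ones called in adults. Pdcd1lg2 joined them, with 39.9 CPM against 3.81 CPM (log2 3.45, SE 0.28, adjusted p = 1.2e-05). Cd83, at 54.4 and 53.3 CPM, and Cd274, at 232.8 and 280.9 CPM, did not pass (log2 0.34, SE 0.24, adjusted p = 0.268, and log2 -0.16, SE 0.18, adjusted p = 0.499).

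Cortical cells stood out for Cd83 and Cd274. Newborn cTEC had 391.6 CPM of Cd83, against 53.3 CPM in newborn mTEClo (log2 3.31, SE 0.26, adjusted p = 2.29e-04 over batches), and 714.1 CPM of Cd274, against 280.9 CPM (log2 1.53, SE 0.18, adjusted p = 0.00153). Pdcd1lg2 (14.9 against 3.81 CPM, log2 2.02, SE 0.27, adjusted p = 0.00233) and Cd40 (87.5 against 44.2 CPM, log2 1.15, SE 0.12, adjusted p = 7.32e-04) were also higher in newborn cTEC. In all, 4 of the 8 members were called higher, against a background of 2% of the genes tested. Cd80, Cd86, Icosl and Ctla4 did not pass (adjusted p from 0.209 to 0.63). Adult cTEC, a single pool, gave values on the same side, with 459.2 CPM of Cd83 and 471.2 CPM of Cd274, but 0 members were called against mTEClo by edgeR, where 0.0423% of 40148 genes were called higher. Cd83 had a log2 difference of 6.04 (SE 0.90, adjusted p = 0.0608) and Cd274 of 1.18 (SE 0.22, adjusted p = 0.111). At an unadjusted p under 0.05 there were 6 members (4102 of all genes, or 10.2%), and they went in both directions. Cd83, Cd274 and Cd40 (log2 1.63, SE 0.45) were higher in adult cTEC. Icosl (log2 -1.31, SE 0.43), Cd86 (log2 -3.07, SE 0.91) and Cd80 (log2 -0.97, SE 0.36) were lower. Pdcd1lg2, higher in newborn cTEC, was at log2 -0.27 (SE 0.44). DESeq2 called 4 members, with Cd86 among them as lower, where it called 2.04% of all genes higher and 3.18% lower. limma called 1 member (0.13% of all genes higher, 0.0448% lower). Without mTEClo pool 1 edgeR called 3 members, and it also called more of all genes in both directions than with that pool. In cTEC the 13 T cell genes summed to 140.9 CPM in newborns and 438.7 CPM in adults, and their part in these levels was not tested. Cells with few leukocyte reads had 389.1 CPM (adult cTEC) and 402.9 CPM (newborn cTEC) of Cd83.

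**Figure D3:**
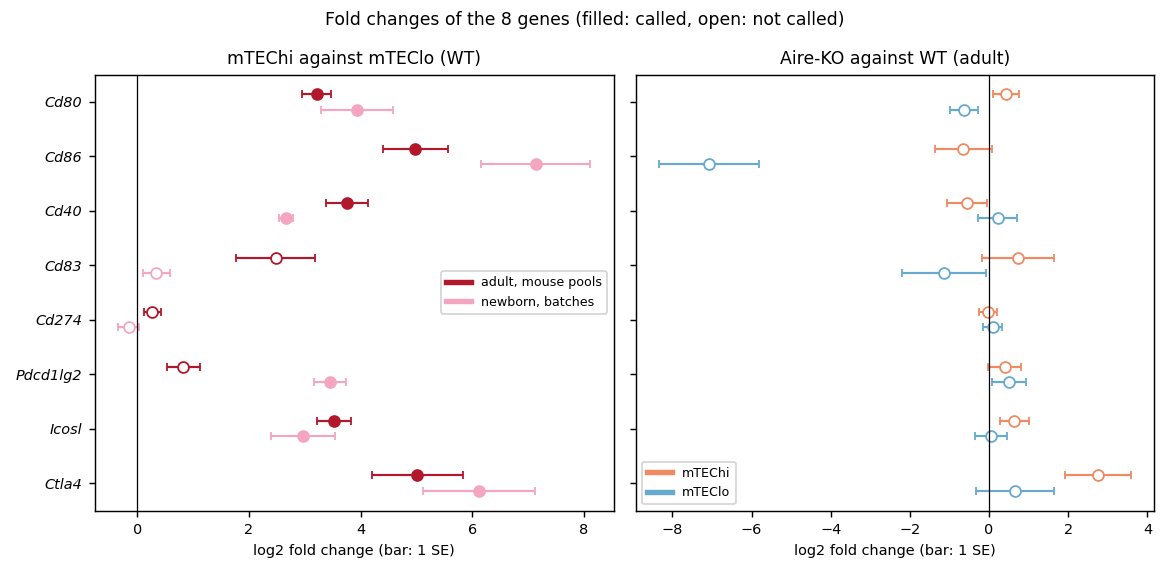
Log2 fold changes of the 8 genes with bars of 1 SE, on the left mTEChi against mTEClo of WT adults (over pools) and newborns (over batches), on the right Aire-KO against WT in adult mTEChi and mTEClo. Filled points passed an adjusted p under 0.05 with a fold of at least 2, and no point on the right is filled.

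The loss of Aire was assessed next. WT pools of this comparison are the ones used above, so the results share control samples. In mTEChi, Ctla4 was at 87.97 CPM in the Aire-KO pool, above the 4.51 to 19.7 CPM of the 4 WT pools (log2 2.75, SE 0.83, p = 0.00992, adjusted p = 0.925). Icosl (808.3 against 391.7 to 716.2 CPM, log2 0.64, SE 0.37), Cd80 (297.9 against 159.9 to 278.8 CPM, log2 0.43, SE 0.32), Cd83 (70.4 against 31.04 to 52.9 CPM, log2 0.72, SE 0.91) and Pdcd1lg2 (64.2 against 43.6 to 61.9 CPM, log2 0.40, SE 0.42) also lay above the WT pools. Cd40 lay below them (161.3 against 200.8 to 300.5 CPM, log2 -0.56, SE 0.49), as did Cd274 (268.03 against 287.3 to 305.3 CPM), whose log2 difference of -0.02 (SE 0.23) changed its sign with the setting. Cd86 was at 34.2 CPM (log2 -0.65, SE 0.71), within the range of WT only through pool 2, of 12 cells, at 28.8 CPM. The other WT pools held 65.9 to 73.3 CPM. A Cd86 read was found in 41.1% of Aire-KO cells, against 57.4 to 65.9% over the 4 WT pools. Cd83, although higher in CPM, was read in fewer Aire-KO cells, 42.9% against 58.3 to 73.2% in the WT pools. The highest 10% of Aire-KO cells held 80.3% of the Cd83 reads. Placement alone says little here, since 16.5% of genes tested lay above and 17.5% below all 4 WT pools.

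None of the 8 members was called by edgeR, nor was any gene (0 of 39971, or 0%). At an unadjusted p under 0.05 there were 4.37% of the genes and 1 member, Ctla4. DESeq2 called 0.130% of genes higher and 1.81% lower, and limma 7 genes higher and 2 lower, with no member among them. With the genotype carried by 1 pool, the spread between Aire-KO mice is not measured, and an adjusted p above the threshold does not show that the genotypes were alike.

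Ctla4 was therefore described in more detail. The 4 experimental batches of Aire-KO mTEChi had 81.4, 84.8, 122.1 and 43.99 CPM, and the 9 of WT mTEChi ran from 7.10 to 45.3 CPM with a median of 15.2 CPM, so that the lowest knockout batch lay just under the highest WT batch. With batches as units the difference was called (log2 2.28, SE 0.64, adjusted p = 0.0292), as was a higher level for 1.23% of the 37011 genes tested that way. The knockout batches divide 1 pool, so this p measures technical spread and not the spread between mice. No batch held both genotypes, so genotype and batch cannot be told apart. Over all 15 settings log2 ran from 2.28 to 3.10 and the adjusted p from 0.0292 to 1. More cells had the transcript in the knockout, 53.8% (exact 95% interval 48.4 to 59.3%) against 16.7 to 34.1% over the 4 WT pools, and 48.8% against 20.3% (mean of 4 pools) at 200000 reads per cell. Cells with a read also held more of it, with a median of 59.6 CPM against 11.9 to 13.1 CPM in WT pools 1, 3 and 4 and 64.7 CPM in pool 2, where only 2 cells had a read. The highest 10% of Aire-KO mTEChi held 66.7% of Ctla4 reads, a lower share than in any WT pool. T cell genes summed to 68.99 CPM in Aire-KO mTEChi, with Cd3e at 1.13 and Foxp3 at 1.16 CPM. In cells with few leukocyte reads Ctla4 was at 91.9 CPM in the knockout (67.2% of its cells) and at 4.11 to 25.8 CPM in the WT pools, about as far apart as in all cells (log2 2.77, SE 0.97).

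**Figure D4:**
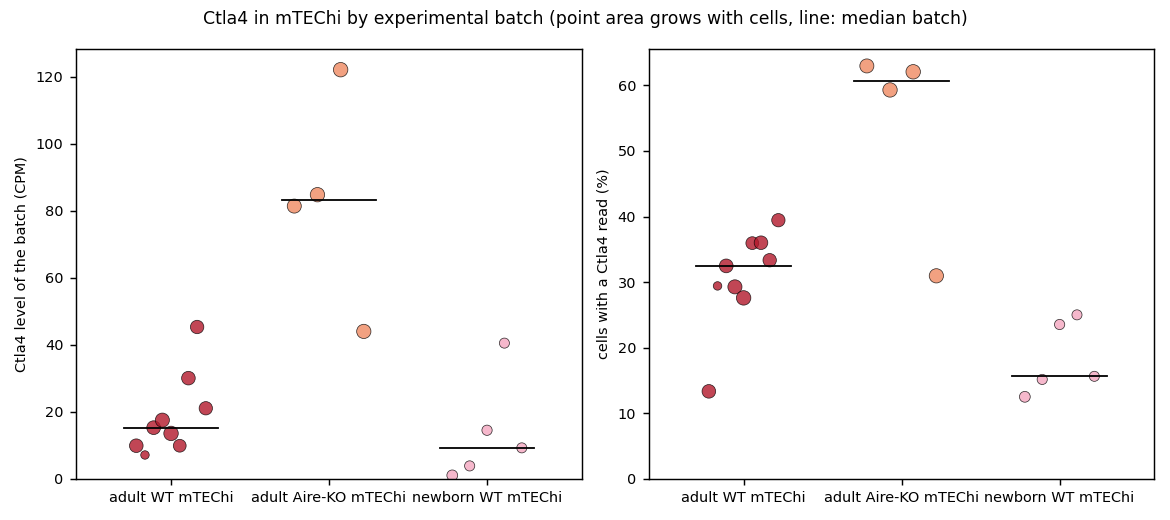
Ctla4 by experimental batch in the 3 mTEChi groups, with the level in CPM on the left and the share of cells with a read (%) on the right. Point area grows with the number of cells, and lines mark the median batch. The Aire-KO batches span 43.99 to 122.1 CPM and the adult WT batches 7.10 to 45.3 CPM.

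In mTEClo, Cd86 was the member that stood apart. The Aire-KO pool held 1 read of it, in 0.649% of its cells, where reads were found in 16.5% of the cells of the WT pools together. The WT share was 23.04% in pool 1, 6.76% in pool 2 and 6.06% in pool 3. Relative to depth the Aire-KO level was 158.03 times lower than in these WT pools together. The exact interval of 28.2 to 6258 covers counting error alone and takes reads as independent, although they were clumped in few cells. The fitted log2 difference was -7.07 (SE 1.26, p = 4.23e-04, adjusted p = 0.898), and DESeq2 called it (adjusted p = 0.00382). Over the 15 settings log2 ran from -8.77 to -1.28 and the adjusted p from 0.00382 to 1. Most WT reads came from few cells, since the highest 10% of cells held 88.8 to 100% of them and 1.38 to 3.03% of the cells of a pool had 5 or more. In cells with few leukocyte reads the WT pools held 0.577 to 1.93 CPM of Cd86 and the Aire-KO pool 0.0114 CPM. WT pool 1 had 0.577 CPM in such cells, against 2.23 CPM in all its cells. Cd80 lay below the WT pools as well (14.4 against 19.2 to 26.5 CPM, log2 -0.63, SE 0.35), where 13.6% of all genes did, and Pdcd1lg2 above them (36.5 against 21.3 to 34.3 CPM, log2 0.50, SE 0.43), where 25.9% did. The values of Cd40, Cd83, Cd274, Icosl and Ctla4 fell within the range of the WT pools. As in mTEChi, edgeR called 0 of 39971 genes (0%), with 3.55% at an unadjusted p under 0.05. DESeq2 called 0.218% higher and 0.465% lower, and limma 6 genes higher and 1 lower. The difference between the Aire effects in the 2 sorts was 6.42 on the log2 scale for Cd86 (SE 1.37, p = 0.00138, adjusted p = 1). It was called by DESeq2 alone, which called 0.168% of all genes higher and 0.3% lower. By edgeR 3.44% of all genes had an unadjusted p under 0.05 for this difference.

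Newborn cells were then set against adult cells of the same sort. In WT mTEChi the estimated differences were at most 0.38 on the log2 scale in any member, with the largest differences at Pdcd1lg2 (39.9 against 53.2 ± 9.01 CPM, log2 -0.38, SE 0.44) and Cd274 (232.8 against 296.9 ± 7.39 CPM, log2 -0.32, SE 0.24). edgeR called 0 of 39971 genes (0%), and 2.01% had an unadjusted p under 0.05. DESeq2 called 12 genes higher and 23 lower, and limma 0.315% of genes higher and 1 gene lower, none of them a member. In mTEClo the newborn pool differed in 3 members at an unadjusted p under 0.05. Pdcd1lg2 was at 3.81 CPM, against 34.3, 21.4 and 21.3 CPM in adults (log2 -2.86, SE 0.54, p = 5.79e-04, adjusted p = 0.139), with a read in 30.6% of newborn cells (exact 95% interval 22.7 to 39.6%). Cd83 was at 53.3 CPM, against 1.28 to 13.03 CPM (log2 2.79, SE 0.89, adjusted p = 0.354), and Cd40 at 44.2 CPM, against 10.4 to 23.3 CPM (log2 1.32, SE 0.46, adjusted p = 0.403).

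Calls in that comparison turned on the setting. edgeR called 0 of 39971 genes (0%), with 9.93% at an unadjusted p under 0.05, whereas DESeq2 called 2.06% of genes higher and 2.57% lower and limma 69 genes higher and 22 lower, Pdcd1lg2 among the lower ones of both. Without mTEClo pool 1, Pdcd1lg2 was called by edgeR too (log2 -2.50, adjusted p = 0.0297). The 5 newborn batches held 2.57 to 7.26 CPM and the 5 adult batches 21.3 to 43.6 CPM, so they did not overlap. The newborn mTEClo pool had 3502 CPM summed over 9 cTEC genes, against at most 1154.1 CPM in an adult pool, and the part of cortical transcripts in its Cd83 and Cd40 levels was not tested. Sort and age together gave a difference of 2.48 on the log2 scale for Pdcd1lg2 (SE 0.63, p = 0.00402, adjusted p = 1.00). It was called by DESeq2 (0.288% of all genes higher, 0.333% lower) and with batches as units (2.89% higher, 2.44% lower). By edgeR 3.81% of all genes had an unadjusted p under 0.05 for this difference.

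The relation to Aire was then read cell by cell within each adult WT mTEChi pool of at least 50 cells (pools 1, 3 and 4). As these are correlations over cells of the same pool, which are not replicates, they are descriptions without a test. Icosl followed Aire most closely, with a mean Spearman's rho of 0.73 over the 3 pools (0.71 to 0.75). Cd40 came next with 0.57 (0.54 to 0.61), then Cd80 with 0.31 (0.23 to 0.36) and Cd83 with 0.29 (0.24 to 0.34). Pdcd1lg2 (0.12), Cd86 (0.04) and Cd274 (0.03) were near 0, and Ctla4 was negative at -0.17, which rested on pool 3 (-0.40) and was -0.06 without it. The mean rho of each member with depth lay between -0.09 and 0.07, but single pools lay further from 0, such as Cd40 in pool 4 (0.20) and Ctla4 in pool 3 (0.15). Aire itself had a rho with depth of 0.05, -0.28 and 0.17 in pools 1, 3 and 4. Thinning cells to 200000 reads left the order of Icosl, Cd40, Cd80 and Cd83 as it was, and Ctla4 in pool 3 was then at -0.34.

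Cells of a pool were also split into 3 equal tiers by their Aire level, which averaged 196.1, 1269.1 and 2541.3 CPM. Icosl stood at 167.5 ± 16.1, 498.3 ± 142.9 and 865.9 ± 167.9 CPM from the lowest to the highest tier (SD, n = 3 pools), Cd40 at 111.6, 264.5 and 353.7 CPM and Cd80 at 179.5, 284.7 and 335.9 CPM. Icosl and Cd40 rose through the tiers in each of the 3 pools, and Cd80 in pools 1 and 4, whereas in pool 3 it was at 340.1 CPM in the middle tier and 330.6 CPM in the highest. Cd83 rose between the lowest and middle tier, from 12.9 to 68.9 CPM, and was at 72.3 CPM in the highest. Cd86 was highest in the middle tier, at 103.4 ± 9.25 CPM, against 48.1 and 53.02 CPM in the lowest and highest. Cd274 was flat to slightly lower (328.2, 282.3 and 278.7 CPM), and Pdcd1lg2 varied by less than its spread (51.3, 59.8 and 57.5 CPM). For Ctla4 the mean levels were 24.05 ± 13.3, 14.95 and 12.3 ± 11.7 CPM. They overlapped between tiers and ran the other way in pool 4, while the share of cells with a read at 200000 reads fell from 33.9 to 24.6 and 14.05% on average.

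**Figure D5:**
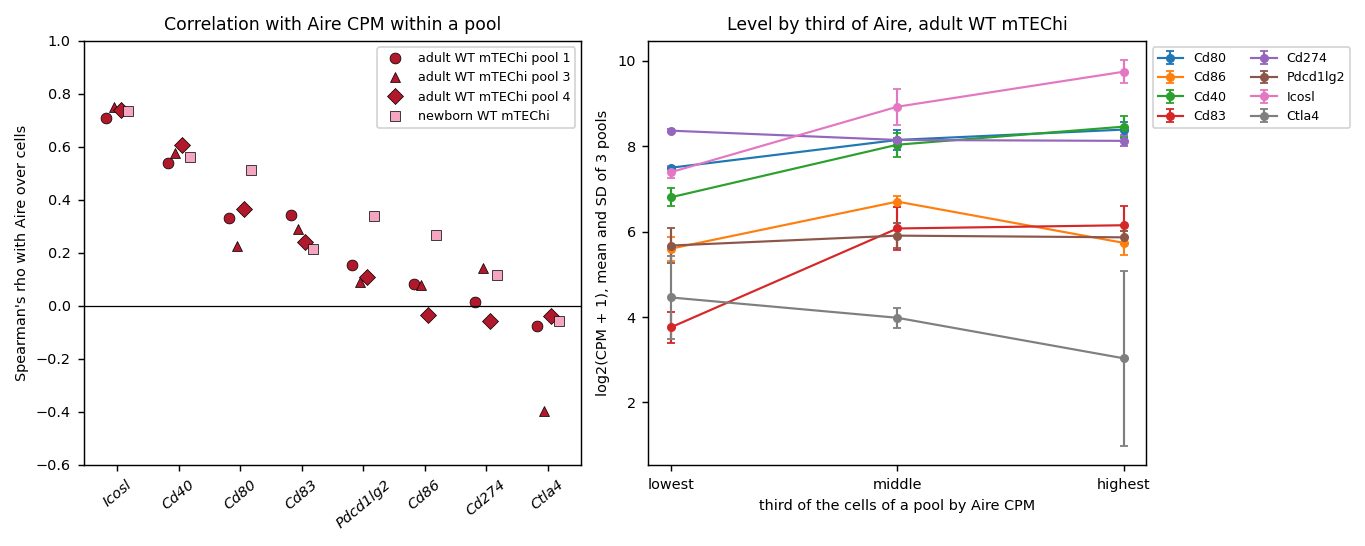
Left, Spearman's rho between each gene and Aire over the cells of a pool, for 3 adult WT mTEChi pools and newborn mTEChi. Right, the level of each gene as log2(CPM + 1), mean and SD of the 3 adult pools, in tiers of cells by Aire. Icosl is highest on the left (0.71 to 0.75) and rises throughout on the right, whereas Ctla4 lies at or under 0.

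Newborn mTEChi gave the same leading genes, with a rho of 0.73 for Icosl, 0.56 for Cd40 and 0.51 for Cd80, and higher values than adults for Pdcd1lg2 (0.34) and Cd86 (0.27). In Aire-KO mTEChi, where 64.2% of cells had at least 1 read of the residual Aire transcript, rho was 0.50 for Icosl, 0.41 for Cd83, 0.38 for Cd80 and 0.29 for Cd40. Icosl stood at 489.8 CPM in the third of Aire-KO cells with the least Aire, which had no such read, and at 1108.6 CPM in the third with the most, so the knockout cells showed the relation too. In the same tiers Ctla4 was at 122.7, 81.3 and 60.9 CPM, but its rho with Aire over the Aire-KO cells was only -0.03.

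Icosl and Aire are neighbours on chromosome 10. Dnmt3l, which lies between them and overlaps Aire, had a mean rho of 0.55 with Icosl and 0.71 with Aire, and in Aire-KO cells Icosl had 0.56 with Dnmt3l. The PD-1 ligand genes are neighbours too, and they were each other's closest match over cells, with a rho of 0.43 (0.46 in Aire-KO). Plgrkt, which starts 64 bases from Cd274 on the other strand, had 0.28. Distant pairs could be as close, however. Over all 28 pairs of members the mean rho ran from -0.20 to 0.58 with a median of 0.13. Cd40 and Icosl led, followed by Cd80 with Cd40 at 0.43, Cd86 with Pdcd1lg2 at 0.33, Cd40 with Cd83 and Cd80 with Icosl at 0.31 each. Ctla4 was the least like the others, with -0.20 to Cd40 and -0.14 to Cd83.

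Among 13747 genes read in enough cells, the closest to Icosl over cells were Aire (0.73), Ankrd33b (0.63) and Nfkbie (0.62), the latter encoding an inhibitor of NF-κB. Cd40 was closest to the adhesion molecule Icam1 (0.66), Ankrd33b (0.62) and Tfdp1 (0.59), and Cd80 to Pla1a (0.53), the NF-κB subunit Rel (0.47) and Rcsd1 (0.46). Cd86 followed the endocytic receptor gene Ly75 (0.43), Lsp1 and Ebi3, Cd83 followed Stra8 (0.41), Trhr2 and Retreg1, and Ctla4 had only weak partners, led by Fam135a (0.30). Across the 13 pools, where the sorts set most of the variation, the closest genes were Grap for Cd80 (Pearson's r 0.99), Bmp3 for Cd86 (0.99), Inf2 for Cd40 (0.99), Bok for Cd83 (0.93), the proteasome gene Psmb4 for Cd274 (0.92), Scin for Pdcd1lg2 (0.96), Rnaseh2b for Icosl (0.99) and the B cell kinase gene Blk for Ctla4 (0.97). Such values describe likeness over few pools and carry no test.

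Other genes of the same families were read for comparison from a list of 44. Between adult WT mTEChi and mTEClo 11 were higher (7.54% of all genes tested were), 3 lower (4.125% of all genes) and 30 did not pass, with 6 of 12 genes of the TNF family, 3 of 23 of the B7 and CD28 family and 2 of 9 adhesion and SLAM genes higher. In the TNF family these were Cd70, the ligand of CD27 (46.1 ± 15.7 CPM in mTEChi, log2 5.40, SE 0.51, adjusted p = 0.00168), Tnfsf8, Tnfsf9, Tnfsf15, Tnfrsf4 (OX40) and Tnfrsf9 (4-1BB; 152.1 ± 21.03 against 24.7 ± 16.7 CPM, log2 2.47, SE 0.41). The others were Lag3, Cd226, Btla, Slamf1 and Icam1, the ligand of LFA-1 (918.9 ± 167.1 against 234.4 ± 134.4 CPM, log2 1.73, SE 0.41). Lower in mTEChi were Lgals9, encoding galectin-9 (92.8 ± 25.6 against 326.04 ± 44.6 CPM, log2 -2.001, SE 0.24, adjusted p = 0.00378), Cd47 (log2 -1.06) and Cd24a (log2 -1.70). In newborns 37 were tested, of which 19 were higher in mTEChi (19.9% of all genes were) and 2 lower (11.99% of all genes), Lgals9 (log2 -1.56) and Sirpa (log2 -1.01), while Cd24a was higher (log2 1.497), opposite to adults. Newborn cTEC had more of 6 of the 37, Cd96, Cd28, Tnfrsf14, Cd27, Alcam and Vcam1, than mTEClo, where 2% of all genes were higher. None of the 44 was called by edgeR in Aire-KO against WT of either sort or in newborn against adult mTEC.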

How the data were processed

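RamDA-seq libraries of 1980 single cells (2148 sequencing samples, as 168 cells had 2 runs, which were added) were analysed. The authors trimmed reads with fastp 0.20.0, aligned them to mm10 with STAR 2.7.3a, filtered with SAMtools 1.9, removed duplicates with Picard 2.21.1 and counted reads per gene without strand with HTSeq 0.11.2. The deposited table holds raw read counts of 48437 genes in cells of over 200000 reads and 8000 genes. Scores scaled by the authors for gene length and library size (GeTMM, edgeR) were used only for the order of the genes within a group. Names and positions of 48263 genes came from a GENCODE annotation of GRCm38, and 0 columns lacked a sample.

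Cells were summed to 13 pools by group, age and sex. Adult wild-type mTEChi pools held 444, 12, 82 and 82 cells and mTEClo pools 217, 74 and 66 cells. Aire-KO mTEChi held 338 cells, Aire-KO mTEClo 154, newborn mTEChi 171, newborn mTEClo 124, newborn cTEC 139 and adult cTEC 77. Doublets were not called. Intervals of shares are exact (Clopper-Pearson, 95%) and cover counting error only.

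Sums were tested with edgeR 4.0.16 in R 4.3.3 (TMM, filterByExpr, 2-sided quasi-likelihood test). A gene was called at a Benjamini-Hochberg adjusted p under 0.05 over all genes tested and a fold of at least 2. The 11 mTEC pools shared 1 fit (39971 genes, 5 residual degrees of freedom), the 13 pools another for adult cTEC, and 15 newborn sums by batch and sort a fit with a term for batch. Groups of 1 pool were assumed to vary like the others. The p-values measure the spread between pools of unequal age, sex and cell number or, over batches, a technical spread. The fit was tested on simulated data. Alternatives were DESeq2 1.42.0, limma 3.58.1 on means of cells, RLE factors, no filter, cells thinned to 200000 reads, batches as units and leaving out a pool. Cells with fewer than 5 reads over 8 leukocyte genes (of T cells, B cells and dendritic cells, among them Cd3e, Itgax, Clec9a and Siglech) were an alternative chosen after seeing the data. The T cell gene Cd3g was left out of these 8, because all 66 cells of adult WT mTEClo pool 3 had reads of it (33.7 CPM). The cause of those reads was not tested.

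The 8 genes, the 44 listed genes of their families and the marker lists were chosen with earlier results of these data known. All members were named, as were listed genes that were called and, per member and measure, up to 3 most-like genes. Promoters of 5 members were taken from RefSeq (GRCm38.p6), from 250 bases before to 50 after the start.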

Additional observations from a re-analysis of the deposited data

Results flagged for a closer look

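Values were looked for that stood far from the others of their group, in 64 sets of pools or batches of 4 to 10, where chance gives about 1 in 20. Such a value was found in 7 sets. Among the 4 adult WT mTEChi pools, pool 2, of 12 cells, had the lowest Cd86 (28.8 CPM, against 65.9 to 73.3 CPM in the others) and the lowest Cd83 (31 CPM, against 49.3 to 52.9 CPM). The same pool also had the lowest Ctla4, at 4.51 CPM, which was not far enough from the others to be found. Shares of cells with a read were below 100% in pool 1 alone for Cd80 (99.8%) and Icosl (99.5%). With the other pools all at 100%, any lower share is found, so the rate of 1 in 20 does not apply to these sets.

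In newborn mTEClo, a single batch of 5 (batch 20) held most of the Cd86, at 3.29 CPM against a median batch of 0.148 CPM, and of the Ctla4, at 0.607 CPM against 0.0494 CPM. In adult mTEClo, batch 33 of pool 1 had 39 CPM of Cd83, against a median batch of 2.18 CPM. The cause of these values was not tested.

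For a pair of genes the effect of genotype or age differed between sorts at an unadjusted p under 0.05. Of all genes tested, 3.44% did so for genotype and 3.81% for age. The Aire-KO effect on Cd86 was 6.42 higher on the log2 scale in mTEChi than in mTEClo (SE 1.37, adjusted p = 1, edgeR), where the knockout pool of mTEClo held 1 read. The newborn effect on Pdcd1lg2 was 2.48 higher in mTEChi than in mTEClo (SE 0.63, adjusted p = 1.00, edgeR), since the newborn mTEClo pool had 3.81 CPM and the other mTEC pools at least 21.3 CPM.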

How the results depend on the processing

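Counts of called members moved by more than 1.5 times in 14 refits and by less in most others. Aire-KO against WT had 0 called by edgeR, but 1 in mTEChi with batches as units and 1 in mTEClo with DESeq2. Here and below, calls with batches as units rest on technical spread. Newborn against adult mTEClo had 0, but 1 with DESeq2, 1 with limma, 3 with batches as units and 0 to 1 when a pool was left out (1 without mTEClo pool 1). Adult cTEC against mTEClo had 0, but 4 with DESeq2, 1 each with no filter, thinned cells and limma, and 0 to 3 when a pool was left out (3 without mTEClo pool 1). For the difference between the Aire effects DESeq2 called 1, and for that between the newborn effects DESeq2 and batches as units called 1 each. For DESeq2 and limma, the shares or counts of all genes called in these settings are given in the results above. With batches as units, newborn against adult mTEClo had 7.08% of all genes called higher and 8.92% lower. Of the refitted fold changes of members, 30 passed the threshold newly and 35 changed sign, none of them called, and the others stayed on their side of it. Without mTEClo pool 1, Cd83 was called between the adult sorts.

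Signs changed for small log2 differences. Aire-KO against WT mTEChi gave Cd274 0.1 with no filter and -0.03 to 0.13 without a pool. In mTEClo, batches as units gave -0.03 for Cd40, -0.02 for Cd274 and -0.14 for Icosl, Icosl was at -0.01 with DESeq2 and with RLE factors, and leaving out a pool gave -0.05 to 0.67 (Cd40), -0.02 to 0.22 (Cd274) and -0.08 to 0.3 (Icosl). Newborn against adult mTEChi gave, in cells with few leukocyte reads, 0.28 for Cd86, -0.03 for Cd40 and 0.26 for Ctla4, and without a pool -0.06 to 0.22 (Cd80), -0.08 to 0.14 (Cd40), -0.03 to 0.22 (Icosl) and -0.49 to 0.04 (Ctla4). Adult cTEC against mTEClo gave Pdcd1lg2 -0.42 to 0.07 without a pool. Newborn cTEC against mTEClo gave Cd86 -0.91 in cells with few leukocyte reads and -0.06 to 2.16 without a batch. For the difference between the Aire effects, no filter gave 0.02 for both Cd274 and Pdcd1lg2, few leukocyte reads 0.0 for Pdcd1lg2, and leaving out a pool -0.25 to 0.1 (Cd274) and -0.47 to 0.18 (Pdcd1lg2). The difference between the newborn effects gave Ctla4 -0.07 with limma. The cause was not tested.

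No paired analysis was possible because the labels number no mice or pools: the pool numbers were given here and pair no samples. The newborn sorts were compared with a term for batch. Genotype and age rest on 1 pool each for knockout and newborn cells, so the spread between such mice is unknown. Shares of cells with few reads depend on depth: 77 of the recomputed shares moved by more than the spread, when cells were thinned, 5 reads were required or a pool was left out.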
